A study of Mus musculus with 30 samples.

Results

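The kidney libraries of a mouse RNA-seq series were compared by genotype: 3 wild-type (WT) kidneys and 3 kidneys of Ctcf haploinsufficient mice (Ctcf+/-, called heterozygous here), 6 of the 30 libraries of the series. They were taken by the tissue and genotype in their labels, and all 48709 annotated genes of the kidney table were read, of which 18937 had enough counts to be tested. All samples carry the strain label C57BL/6 and the stage label adult, and the design text counts 3 mice per genotype, each giving brain, kidney, liver, muscle and spleen. The labels name no treatment and no allele other than that of Ctcf, and do not describe how the allele was made. RNA was extracted from pieces of whole tissue under 30 mg, and the labels do not say from which part of the kidney each piece was cut. The libraries are called WT 1 to WT 3 and het 1 to het 3 after the numbers in their labels.

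The kidney filters blood in the glomerulus, where podocytes form the outer layer of the filter, and then recovers water, salts, glucose and amino acids along the proximal tubule, the loop of Henle, the distal tubule and the collecting duct. Each segment carries its own transporters, so that bulk RNA of the organ reads out the amount and state of these segments, of its vessels and interstitium, and of its resident immune cells. CTCF is a zinc finger protein that binds DNA at insulator sites and halts the loop-extruding cohesin ring. In bulk tissue, fewer cells of a type and less RNA per cell of that type cannot be told apart.

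Segment markers were found in every library under the kidney label. The sodium-phosphate cotransporter gene Slc34a1 of the proximal tubule was read at 2479, 3340.2 and 3417 CPM in WT and 3731, 3497 and 3219.8 CPM in heterozygous libraries, on the normalised CPM scale, in which counts are divided by the size of the library. Umod, the uromodulin gene of the thick ascending limb, was read at 3764, 4077 and 3673 CPM in WT and 3834, 3503 and 3600.5 CPM in heterozygous libraries. The podocyte gene Synpo was present in all 6 libraries as well, with 32.6 CPM in the lowest. The libraries held 82510873 to 100159423 counts, so that a count of 0 allows up to 0.02995 to 0.0364 CPM (3 counts, counting error only), and mitochondrial genes took 7.12 to 9.09% of counts. The 4 Y-linked genes examined were at 0 in all 6 libraries, and Xist was read at 313 to 552 CPM. P-values of the kidney tests below measure the spread between these 6 mice or, where libraries are paired by number, the spread left within pairs. Those of the comparison with other tissues use the spread over all 30 libraries.

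Some libraries stood apart from their groups. Over the 500 most variable genes, the first principal component held 36.8% of the variance, of which 0.0454% lay between genotypes; it placed het 3 at 19.7 and het 1 at -13.0. The second component held 23.1% of the variance, and 96.5% of that lay between genotypes. The genes at the ends of the first component were Acta1, Alb, Cyp26b1, Aldh1a3 and Akr1b3 on the side of het 3, and Igha, Per2, Ccn2, G6pc and Gm42047 on the side of het 1. Het 3 was the highest of the 6 libraries for 22.7% of tested genes and the lowest for 23.5%. Among genes with a mean of at least 1 CPM, 35 lay at least 2-fold above all other libraries in het 1 and 34 in het 3, against 14 in WT 1, 2 in WT 2, 0 in WT 3 and 2 in het 2. At least 2-fold below all other libraries lay 38 genes in WT 3, 23 in het 1, 14 in het 3, 12 in WT 2, 11 in het 2 and 4 in WT 1.

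Ctcf itself, the targeted gene, was read at 63.9, 58.04 and 58.1 CPM in WT and 38.1, 39.6 and 32.9 CPM in heterozygous libraries. Every heterozygous library lay below every WT library, at 36.8 ± 3.51 against 60.01 ± 3.36 CPM (mean ± SD, n = 3 each), which is 61.4% of the WT mean. The fitted log2 fold change was -0.70 (SE 0.10). In the fit across all genes its Benjamini-Hochberg adjusted p was 0.107 (edgeR's quasi-likelihood test). It was 0.0440 when the replicate number was kept as a block. Without the block it was 4.29e-07 in DESeq2 and 0.0364 in edgeR without het 3, so the call depends on the fit. An exact two-sided permutation test on this gene alone gave p = 0.1, the smallest that 3 against 3 libraries allow. The exons of Ctcf overlap those of Agrp and Gm5914 on the opposite strand, and the counting ignored strand.

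In all, 4 genes passed an adjusted p of 0.05, which is 0.0211% of those tested, and DESeq2 called 175 (0.924%). The adjusted p below are from edgeR unless another tool is named. Without het 1 the number was 9 (0.0464%). At an unadjusted p under 0.05, 757 genes (4.0%) were higher and 462 (2.44%) lower. Carmil2, a regulator of actin capping, lies on chromosome 8 from 105686274, just past the end of Ctcf at 105682922. It was read at 1.53, 0.687 and 0.906 CPM in WT and 45.5, 46.4 and 35.3 CPM in heterozygous libraries. Its exons overlap those of Acd on the opposite strand. Fst, which encodes the activin-binding protein follistatin, was read at 8.06, 6.60 and 8.66 CPM in WT and 16.6, 20.02 and 18.03 CPM in heterozygous libraries. Both genes rose without overlap between the groups, by 5.34 (SE 0.28, adjusted p = 5.56e-04) and 1.23 (SE 0.13, adjusted p = 0.0486) on the log2 scale. Carmil2 passed in 14 of 14 alternative fits, whereas Fst passed in 7 of 14 and in only 1 of the 6 that left out 1 library. Epdr1, a gene of the ependymin family, was read at 12.1, 13.3 and 15.2 CPM in WT and 2.50, 2.69 and 2.31 CPM in heterozygous libraries. It fell in all heterozygous libraries, at a log2 difference of -2.44 (SE 0.14, adjusted p = 5.59e-04). The non-coding model 5830444B04Rik was read at 1.64, 3.22 and 2.78 CPM in WT and 0.0317, 0.0359 and 0.0506 CPM in heterozygous libraries, the heterozygous values being 5 counts or fewer, and it fell as well (adjusted p = 0.00121). Its exons overlap those of Cfap74 on the opposite strand.

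Libraries with the same number deviated together from their group means, so that the numbers were taken to pair WT and heterozygous libraries. The labels state no such pairing. It was read from the same counts that the blocked test uses, so the p-values with the block may be too small. With the number as a block, 21 genes (0.111% of those tested) passed, 13 higher and 8 lower, and the 4 genes above were among them. The genes that rose under the block included Hdc, the histamine-forming enzyme histidine decarboxylase, at 61.9, 39.9 and 61.4 CPM in WT and 154, 133 and 381 CPM in heterozygous libraries (adjusted p = 0.0421 with the block). Het 3 was the highest library for this gene, and all 3 heterozygous libraries lay above the WT range. Smoc2, a matricellular protein gene, also rose with the block, from 21.2, 22.8 and 19.6 CPM in WT to 32.6, 35.1 and 32.7 CPM in heterozygous libraries (adjusted p = 0.0440). Cyp24a1, the enzyme that inactivates vitamin D hormone, rose as well (adjusted p = 0.0403 with the block), although the groups overlapped. Its levels were 10.3, 35.4 and 17.8 CPM in WT and 34.2, 68.9 and 37.9 CPM in heterozygous libraries, higher than the same-numbered WT library in each of the 3 pairs. Its exons overlap those of Pfdn4 on the opposite strand. Among the genes that fell, the collagen-binding integrin subunit gene Itga2 was read at 2.75, 1.95 and 2.90 CPM in WT and 0.285, 0.383 and 0.719 CPM in heterozygous libraries (adjusted p = 0.0386 with the block). Calca, which encodes calcitonin and the peptide CGRP, was read at 2.19, 2.01 and 2.11 CPM in WT and 0.760, 0.623 and 0.749 CPM in heterozygous libraries (adjusted p = 0.0489 with the block). Smoc2, Cyp24a1 and the collagens named below belong to the block calls but were chosen here after their values were seen.

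**Figure D1:**
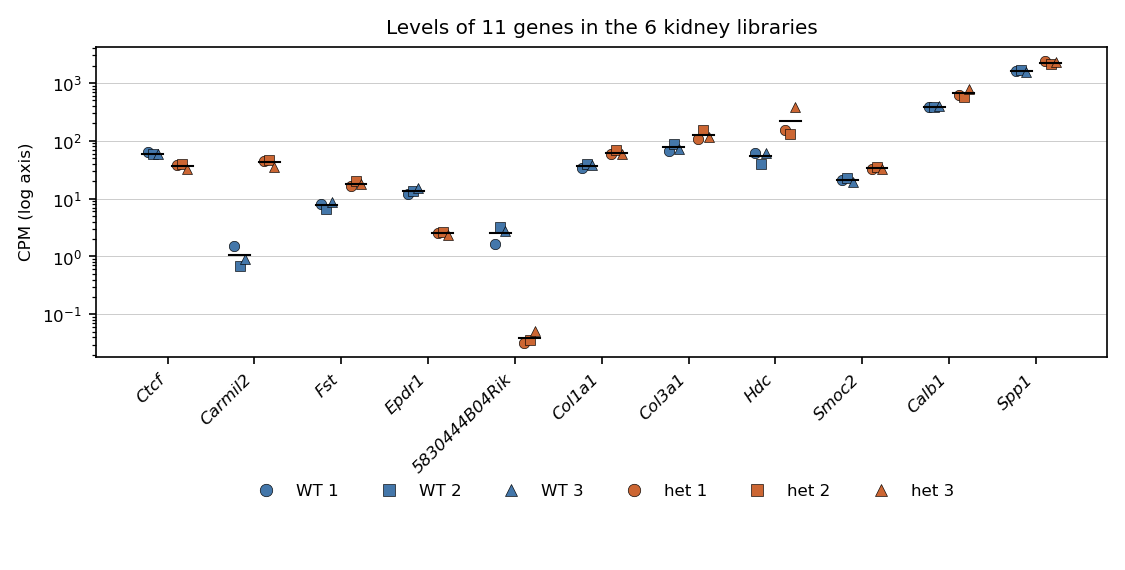
CPM on a log axis for single genes in the 3 WT and 3 heterozygous kidney libraries, each point 1 library and each black line a group mean. Ctcf, Epdr1 and 5830444B04Rik lie lower in all 3 heterozygous libraries and the other 8 genes higher, with Hdc highest in het 3.

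To describe programs, 507 genes were grouped in 44 lists of segment, cell type and pathway genes. Of these, 481 were tested. None of the 481 passed the adjusted threshold in edgeR's unblocked test, whereas DESeq2, also without the block, called 13 higher and 9 lower. The higher ones included Ptpro, Calb1, Ren1, Col1a1, Col3a1, Mmp2, Spp1, Aif1, Irf7, Isg15, Oasl1 and Bst2. The lower ones were Ctcf, Aqp4, Krt8, Krt19, Slc6a12, Slc14a2, Hspa1a, Hspa1b and Krt5. With the block 5 passed, among them Col1a1, Col3a1, Ctcf and Cyp11b1. In 65 members every heterozygous library lay above every WT library, and in 22 every one lay below. Over all tested genes these patterns were found in 6.15% and 5.28%. Leaving out a library can keep or raise such counts but cannot lower them, in lists and over all tested genes alike. Counts without a library therefore do not test whether a pattern rests on it. The median log2 fold change over all tested genes was close to 0, and 50.1% were positive. For each list, a library score was taken as the median over members of the log2 level minus the gene's mean over the 6 libraries.

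**Figure D2:**
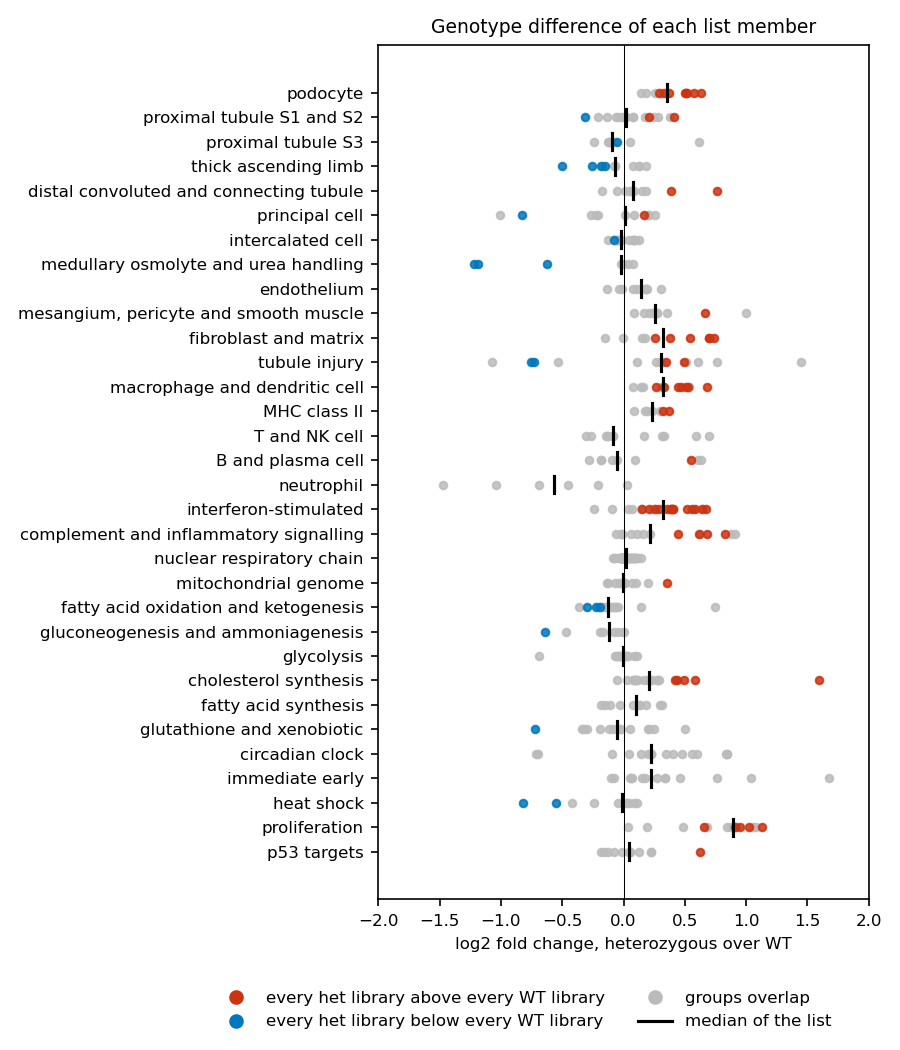
Log2 fold change (heterozygous over WT) of each tested member of the main lists, 1 point a gene, in red where every heterozygous library lay above WT, in blue where every one lay below and in grey where the groups overlap; the black line is the list median. The podocyte, macrophage and proliferation points all lie above 0, whereas respiratory chain points gather around 0.

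The podocyte genes lay higher in the heterozygous kidneys as a set of values. All 12 members had positive log2 fold changes, with a median of 0.35, and 8 of 12 (66.7%, against 6.15% of all tested genes) had every heterozygous library above every WT library. At an unadjusted p under 0.05, 8 members were higher and none lower. Ptpro, a receptor phosphatase of the foot processes, was read at 9.34, 8.45 and 7.49 CPM in WT and 12.7, 14.1 and 10.9 CPM in heterozygous libraries. Synpo, the actin-associated synaptopodin, was read at 34.03, 43.3 and 32.6 CPM in WT and 46.6, 64.1 and 46.5 CPM in heterozygous libraries. Podxl, which encodes the negatively charged coat protein podocalyxin, was read at 143, 159 and 145 CPM in WT and 175, 213 and 176 CPM in heterozygous libraries. In each of these 3 genes the groups did not overlap and het 2 was the highest library. Their log2 fold changes were 0.58 (SE 0.14), 0.52 (SE 0.16) and 0.33 (SE 0.10), with adjusted p of 0.401, 0.531 and 0.572, so none passed in edgeR, and Ptpro passed in DESeq2 (adjusted p = 0.0182). Wt1, the transcription factor that maintains podocytes, was read at 6.20, 6.88 and 4.57 CPM in WT and 8.13, 11.99 and 7.31 CPM in heterozygous libraries, again with het 2 on top. The slit diaphragm gene Nphs1 showed the same order of groups, but its exons overlap those of other genes on the opposite strand. Plce1, Magi2, Kirrel and Thsd7a overlapped between the groups. Het 2 was the highest library for 10 of the 12 members and WT 3 the lowest for 9. Summed over the list, the level ran from 279 to 331 CPM in WT and from 360.2 to 462 CPM in heterozygous libraries. With 1 library left out, 8 to 10 of 12 members lay higher without overlap, against 9.54 to 13.5% of all tested genes. That count could not fall below 8, and the list median then ran from 0.31 to 0.45.

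Proximal tubule genes did not lie together on either side. Of 17 genes of the first segments (S1 and S2), 11 had positive log2 fold changes, and the median was 0.02. The groups were apart in 2 upwards (11.8%) and 1 downwards (5.88%), against 6.15% and 5.28% of all tested genes. Slc34a3, a phosphate cotransporter, was read at 41.3, 50.4 and 48.8 CPM in WT and 74.3, 51.01 and 61.2 CPM in heterozygous libraries. Slc7a8, an amino acid exchanger, was read at 126, 154 and 177 CPM in WT and 215, 168 and 212 CPM in heterozygous libraries, with WT 3 inside the heterozygous range. The urate transporter gene Slc22a12 was read at 777, 786 and 871 CPM in WT and 657, 605 and 700.1 CPM in heterozygous libraries, every heterozygous library below WT, but it overlaps Nrxn2 on the opposite strand. Their adjusted p were 0.633, 0.692 and 0.593. Lrp2, which encodes the endocytic receptor megalin, was read at 2831, 2346 and 2209 CPM in WT and 2665, 2485 and 2023 CPM in heterozygous libraries, and its groups overlapped. Het 1 was the highest library for 9 of the 17 genes and WT 1 the lowest for 8. In the last segment (S3) 8 of 10 genes were negative, with a median of -0.09. There 1 of 10 was lower without overlap, against 5.28% of all tested genes. It was Slc27a2, apart by a narrow margin, at 3184, 3205 and 3178 CPM in WT and 3039, 3145 and 3035 CPM in heterozygous libraries.

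In the thick ascending limb, 4 of 12 genes had every heterozygous library below every WT library, against 5.28% of all tested genes, with a list median of -0.07. Casr, the calcium-sensing receptor gene, was read at 38.7, 29.02 and 31.3 CPM in WT and 28.6, 25.4 and 15.8 CPM in heterozygous libraries. Cldn10, a sodium-permeable tight junction claudin, was read at 261, 282 and 257 CPM in WT and 209.5, 215 and 244 CPM in heterozygous libraries. Egf, whose product this segment and the distal tubule release, was read at 2019, 2017 and 1981 CPM in WT and 1840.0, 1936 and 1533 CPM in heterozygous libraries. All 3 were lower without overlap, by small margins in Casr and Egf where het 3 was the lowest. The log2 fold changes were -0.50 (SE 0.21, adjusted p = 0.736) for Casr and -0.26 (SE 0.09, adjusted p = 0.659) for Cldn10. The salt transporter gene Slc12a1, the target of loop diuretics, was read at 1564, 1518 and 1524 CPM in WT and 1453, 1564 and 1372 CPM in heterozygous libraries and overlapped. Exons of Egf overlap those of 6330410L21Rik and Gm42697 on the opposite strand.

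Calb1, which encodes the calcium buffer calbindin of the distal and connecting tubule, had the smallest p of its segment. It was read at 384, 386 and 399.7 CPM in WT and 629, 576 and 781 CPM in heterozygous libraries. The WT libraries were close together and every heterozygous library lay above them, at a log2 difference of 0.76 (SE 0.12, adjusted p = 0.158, and 0.0733 with the block). Slc8a1, the sodium-calcium exchanger of the same cells, was read at 16.5, 20.4 and 17.3 CPM in WT and 25.97, 23.6 and 21.3 CPM in heterozygous libraries, also without overlap (adjusted p = 0.528). Its exons overlap those of Gm11096 on the opposite strand. The calcium channel gene Trpv5 did not follow these genes, at 15.3, 11.7 and 11.7 CPM in WT and 14.8, 13.03 and 12.6 CPM in heterozygous libraries. Slc12a3, the thiazide-sensitive cotransporter gene, was read at 822, 777 and 899.6 CPM in WT and 920.4, 948 and 731 CPM in heterozygous libraries and also overlapped. S100g, another calcium-binding protein of the segment, ranged from 416 CPM in het 1 to 758 CPM in het 3, with all WT libraries between. Over the 10 genes of the list, 8 were positive and the median was 0.07.

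Collecting duct genes differed in which library was low. Aqp4, the basolateral water channel of principal cells, was read at 114, 115 and 89.6 CPM in WT and 53.98, 56.02 and 69.2 CPM in heterozygous libraries. All heterozygous libraries lay below WT, at a log2 difference of -0.83 (SE 0.13, adjusted p = 0.158). It passed when het 3 was left out (adjusted p = 0.0336). Aqp2, the vasopressin-regulated water channel, was read at 432, 460.3 and 358 CPM in WT and 240.2, 538 and 719.8 CPM in heterozygous libraries. Here het 1 was the lowest and het 3 the highest of all 6 libraries, so the heterozygous kidneys spanned the WT range. Elf5, a transcription factor of principal cells, was read at 10.3, 13.5 and 13.8 CPM in WT and 1.78, 5.41 and 11.5 CPM in heterozygous libraries, in the same order within the heterozygous group. Het 1 was the lowest library for 5 of the 11 principal cell genes. Scnn1b, a subunit of the sodium channel ENaC, was the single member higher without overlap, at 42.2, 42.1 and 40.8 CPM in WT and 44.7, 46.9 and 48.7 CPM in heterozygous libraries. Intercalated cells, which secrete acid or base, showed little spread: 14 genes had log2 fold changes with a median of -0.02, and only Atp6v1b1, a proton pump subunit, was apart, at 125, 124 and 123 CPM in WT and 117, 116 and 119 CPM in heterozygous libraries.

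Of 7 genes for osmolytes and urea in the medulla, 3 were lower in every heterozygous library, against 5.28% of all tested genes. Slc6a12, the betaine transporter, was read at 8.34, 7.64 and 7.18 CPM in WT and 2.03, 3.56 and 4.55 CPM in heterozygous libraries. Slc14a2, the urea transporter of the inner medulla, was read at 54.5, 52.1 and 48.2 CPM in WT and 24.4, 36.1 and 39.6 CPM in heterozygous libraries. Akr1b3, the aldose reductase that makes sorbitol, was read at 411, 367 and 334 CPM in WT and 47.7, 102 and 327 CPM in heterozygous libraries. Het 1 was the lowest library in all 3 genes, and het 3 lay nearest to WT. Their log2 fold changes were -1.19 (SE 0.26, adjusted p = 0.321), -0.63 (SE 0.16, adjusted p = 0.449) and -1.22 (SE 0.57, adjusted p = 0.814). With 1 library left out, 3 of the 7 members were lower without overlap, against 8.71 to 13.0% of all tested genes. That count could not fall below 3. The other 4 members, among them the osmolyte transporters Slc5a3 and Slc6a6 and the osmotic transcription factor Nfat5, overlapped, with values such as 77.9, 63.02 and 67.1 and 69.7, 82.6 and 52.3 CPM for Nfat5.

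Among the fits that leave out 1 library, the one without het 3 changed the calls most. Among 19278 genes then tested, 56 passed (0.290%), 9 higher and 47 lower, against 2 and 2 with all libraries. In the 47 lower genes het 3 lay between the other heterozygous libraries and WT in 24, within the WT range in 10, above it in 9, and at or below the other heterozygous libraries in 4. At the median it stood 78.9% of the way from het 1 and het 2 to the WT mean, and in 32 of the 47 it stood past 50%. In the 9 higher genes het 3 stayed above WT. The calls used het 1, het 2 and the WT libraries, so the position of het 3 is given as a description.

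The genes called without het 3 with the largest log2 fold changes at 1 CPM or more included Cldn11, a claudin of tight junctions, at 5.99, 4.68 and 9.34 CPM in WT and 0.327, 0.551 and 5.18 CPM in heterozygous libraries. Adgrf1, an adhesion receptor gene, was read at 10.7, 8.01 and 11.4 CPM in WT and 0.591, 1.22 and 5.25 CPM in heterozygous libraries. Calml3, a calmodulin-like protein gene, was read at 6.04, 7.57 and 8.19 CPM in WT and 1.25, 1.38 and 6.48 CPM in heterozygous libraries. In these genes het 1 and het 2 lay below all WT libraries, while het 3 lay within the WT range for Cldn11 and Calml3 and between the groups for Adgrf1. For Akr1b3 above het 3 lay just under the WT range, and for Prss35 and Meox2 it lay within it. The latter were read at 5.82 and 2.16 CPM in het 3 against at most 0.455 and 0.347 CPM in het 1 and het 2. Arhgdig shared this order too, but its exons overlap those of Pdia2 and Rgs11. Epdr1 and Itga2 stayed low in het 3, at 2.31 and 0.719 CPM. Lamb3, a laminin chain gene at the end of the second component, was read at 18.7, 19.1 and 20.5 CPM in WT and 3.91, 5.25 and 13.9 CPM in heterozygous libraries. Wnt4, a signalling ligand of the collecting duct, was read at 15.4, 20.1 and 23.2 CPM in WT and 3.28, 4.90 and 17.8 CPM in heterozygous libraries, and Nupr1, a stress-response gene, at 55.4, 57.9 and 47.99 CPM in WT and 21.03, 24.1 and 58.5 CPM in heterozygous libraries. Cryab, the chaperone alpha-B crystallin that is abundant in the inner medulla, was read at 318, 291 and 259 CPM in WT and 129, 141 and 374 CPM in heterozygous libraries, with het 3 the highest of the 6 libraries. Wnt4, Nupr1 and Cryab were chosen after their values were seen.

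**Figure D3:**
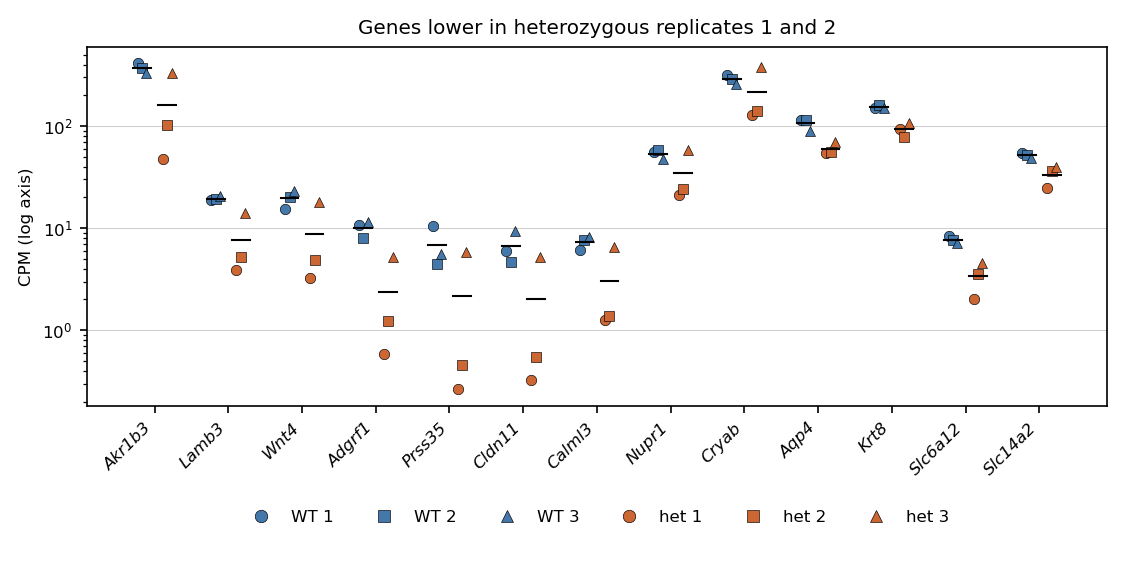
CPM on a log axis of 13 genes in the 6 kidney libraries, each point 1 library and each black line a group mean. Het 1 and het 2 lie below the WT libraries in all 13, while het 3 lies between them and WT, within the WT range or, as for Cryab at 374 CPM, at the top.

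Of 10 fibroblast and matrix genes 8 were positive, and in 6 every heterozygous library lay above every WT library, against 6.15% of all tested genes. Col1a1, a chain of type I collagen, was read at 34.1, 39.6 and 37.9 CPM in WT and 58.04, 69.8 and 58.7 CPM in heterozygous libraries. Col3a1, the type III collagen gene, was read at 67.9, 89.8 and 73.6 CPM in WT and 106, 152 and 118 CPM in heterozygous libraries. Both were higher in every heterozygous library, het 2 being the highest, and both rose in the blocked test (adjusted p = 0.0383 and 0.0436) though not in the unblocked one (0.107 and 0.320). Col1a2, the second chain of type I collagen, was read at 87.2, 101 and 93.6 CPM in WT and 110.4, 138 and 118 CPM in heterozygous libraries (adjusted p = 0.472). Mmp2, a matrix metalloproteinase, was read at 5.10, 5.62 and 6.74 CPM in WT and 8.27, 8.87 and 8.32 CPM in heterozygous libraries, at a log2 difference of 0.54 (SE 0.14, adjusted p = 0.427). Dcn and Postn were the other members apart. Pdgfra, the receptor that marks fibroblasts, was not among them, at 39.8, 39.3 and 39.7 CPM in WT and 28.9, 41.2 and 37.04 CPM in heterozygous libraries. Fn1, the fibronectin gene, overlapped as well. The list median was 0.32, and 0.28 to 0.37 when 1 library was left out. The number apart, which could not fall, was then 6 or 7 (6 without het 3), against 9.54 to 13.5% of all tested genes. Exons of Col3a1 overlap those of Gm47302 on the same strand.

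Genes of mesangial cells, pericytes and smooth muscle were positive in 10 of 10, with a median of 0.26. Ren1, the renin gene of the juxtaglomerular cells, was read at 82.2, 76.8 and 55.3 CPM in WT and 95.3, 108 and 137 CPM in heterozygous libraries. It was the single member apart between the groups (log2 fold change 0.67, SE 0.18, adjusted p = 0.449), and het 3 was the highest. Akr1b7, an aldo-keto reductase that renin cells express, was read at 1.65, 1.17 and 2.11 CPM in WT and 1.58, 2.98 and 5.31 CPM in heterozygous libraries and overlapped. Het 2 was the highest library for 7 of these 10 genes and for 7 of 10 endothelial genes. Eng, the endothelial co-receptor endoglin, was read at 124, 129 and 142 CPM in WT and 134, 187 and 166 CPM in heterozygous libraries, and Kdr, the VEGF receptor of endothelium, at 58.1, 61.3 and 69.8 CPM in WT and 57.2, 85.3 and 57.2 CPM in heterozygous libraries. No endothelial gene was apart between the groups, and the list median was 0.14. So het 2 was the library in which podocyte, vessel and matrix genes were highest together, and its part in those differences was not tested beyond the fits that leave it out. Without het 2 the medians were 0.31 for podocytes, 0.28 for matrix, 0.15 for mesangial cells, pericytes and smooth muscle and -0.02 for endothelium.

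Of 14 genes that rise after tubule injury 10 were positive, with a median of 0.31, and the groups were apart in 2 upwards and 2 downwards, against 6.15% and 5.28% of all tested genes. Spp1, the secreted phosphoprotein osteopontin, was read at 1588, 1658 and 1555 CPM in WT and 2386, 2088 and 2283 CPM in heterozygous libraries. It was higher in every heterozygous library (log2 fold change 0.49, SE 0.10, adjusted p = 0.242), and its exons overlap those of Gm42793 on the same strand. Krt8 and Krt19, keratins of simple epithelia that also line the collecting duct, were lower. Krt8 was read at 151, 159.9 and 149 CPM in WT and 93.4, 77.4 and 107 CPM in heterozygous libraries. Krt19 was read at 24.9, 22.5 and 19.5 CPM in WT and 10.9, 13.7 and 14.96 CPM in heterozygous libraries. Their log2 fold changes were -0.73 (SE 0.12, adjusted p = 0.164) and -0.76 (SE 0.14, adjusted p = 0.214), without overlap, and Krt8 fell in the fit without het 3 (adjusted p = 0.0334). Havcr1, the injury marker KIM-1, was high in 1 library, at 3.57, 1.22 and 2.13 CPM in WT and 12.7, 1.99 and 4.15 CPM in heterozygous libraries. The 12.7 CPM of het 1 stood out, while het 2 and het 3 lay close to or within the WT range. Lcn2, another injury marker, overlapped between the groups.

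Resident macrophage and dendritic cell genes were positive in 14 of 14, with a median of 0.32, and 7 of 14 were higher without overlap against 6.15% of all tested genes. C1qc, a subunit of complement C1q that tissue macrophages make, was read at 21.4, 29.7 and 24.8 CPM in WT and 33.3, 35.1 and 39.6 CPM in heterozygous libraries. Cx3cr1, the fractalkine receptor of kidney macrophages, was read at 7.77, 8.02 and 9.61 CPM in WT and 10.6, 11.7 and 12.8 CPM in heterozygous libraries. Aif1, a cytoplasmic macrophage marker, was read at 3.54, 4.84 and 4.17 CPM in WT and 5.36, 6.75 and 7.98 CPM in heterozygous libraries. All 3 were higher in each heterozygous library and highest in het 3. Their log2 fold changes were 0.51 (SE 0.13), 0.47 (SE 0.13) and 0.68 (SE 0.19), with adjusted p of 0.431, 0.467 and 0.467. Csf1r, the growth factor receptor of the lineage, was read at 61.1, 71.1 and 68.6 CPM in WT and 73.5, 65.4 and 73.5 CPM in heterozygous libraries and overlapped. WT 1 was the lowest library for 11 of the 14 genes and het 3 the highest for 9. Without WT 1 the list median was 0.28 and without het 3 it was 0.32. The number apart, which could not fall, was 7 in each case, against 9.88% and 13.5% of all tested genes.

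The MHC class II genes, which present peptides and are carried by the same cells, were positive in 7 of 7. Cd74, the invariant chain, was read at 229, 314 and 271 CPM in WT and 323, 343 and 389 CPM in heterozygous libraries. H2-Eb1 was read at 137, 178 and 162 CPM in WT and 178, 195 and 223 CPM in heterozygous libraries. Both were higher in every heterozygous library, H2-Eb1 by a narrow margin, with adjusted p of 0.638 and 0.696, while H2-Aa and H2-Ab1 overlapped. With all libraries 2 of 7 were apart, against 6.15% of all tested genes. Without het 3, where the number could not fall, it was 3 of 7, against 13.5% of all tested genes. The list median was 0.24, WT 1 was the lowest library for 6 of 7 genes, and the transactivator gene Ciita, at 3.72, 3.57 and 3.63 CPM in WT and 4.36, 5.28 and 3.24 CPM in heterozygous libraries, overlapped. Exons of Cd74 and of Ciita overlap those of other annotated genes.

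Interferon-stimulated genes, which cells switch on when interferon is sensed, had the largest number of members apart of any list. The podocyte list had the larger share (66.7%). Of the 22 genes, 14 (63.6%, against 6.15% of all tested genes) were higher in every heterozygous library, and none was lower. The log2 fold changes of 20 of 22 were positive, with a median of 0.32. Irf7, the transcription factor that amplifies the response, was read at 19.6, 26.9 and 22.3 CPM in WT and 39.6, 38.6 and 31.5 CPM in heterozygous libraries. Isg15, a ubiquitin-like modifier, was read at 7.97, 8.99 and 10.02 CPM in WT and 12.7, 13.4 and 13.6 CPM in heterozygous libraries. Oasl1, a gene of the OAS family, was read at 2.72, 2.97 and 3.38 CPM in WT and 5.29, 4.38 and 4.47 CPM in heterozygous libraries. None of these 3 overlapped between the groups. The log2 fold changes were 0.67 (SE 0.14), 0.56 (SE 0.11) and 0.64 (SE 0.16), with adjusted p of 0.255, 0.257 and 0.419, so none passed in edgeR, while all 3 passed in DESeq2 (adjusted p = 0.00297, 0.00410 and 0.0210). Bst2, the membrane tether tetherin, was read at 29.2, 40.4 and 36.6 CPM in WT and 45.1, 53.6 and 53.6 CPM in heterozygous libraries (adjusted p = 0.425, and 0.0805 with the block). Members without a difference of this kind included Rsad2, the antiviral enzyme viperin, at 36.95, 38.8 and 42.3 CPM in WT and 37.7, 47.7 and 38.2 CPM in heterozygous libraries. The guanylate-binding protein genes Gbp2 and Gbp3 were the 2 negative members, Gbp3 being read at 133, 86.1 and 77.1 CPM in WT and 100.2, 73.9 and 76.5 CPM in heterozygous libraries. Irf7, Oasl1 and Gbp2 share exonic sequence with other annotated genes.

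The median of the interferon list did not rest on 1 library, running from 0.28 to 0.36 whichever 1 was left out. With 1 library left out, 14 to 18 of 22 members were higher without overlap, a count that could not fall below 14. Without both libraries of number 3, 18 of 22 were apart, against 18.3% of all tested genes. The library scores were -0.18, -0.08 and -0.14 in WT and 0.21, 0.19 and 0.07 in heterozygous kidneys, which did not overlap. Scores of other lists, such as the podocyte, matrix, macrophage, cholesterol and proliferation lists, did not overlap either. Mx1, an antiviral GTPase, was read at 0.965, 1.09 and 0.794 CPM in WT and 1.71, 1.70 and 1.05 CPM in heterozygous libraries, and it became apart when het 3 was left out. Cxcl10, an interferon-induced chemokine, was read at 4.48, 4.96 and 3.32 CPM in WT and 6.40, 5.46 and 7.63 CPM in heterozygous libraries, its exons overlapping Art3 on the opposite strand. Ccl2, a chemokine that draws monocytes, was read at 0.997, 1.04 and 0.743 CPM in WT and 1.71, 1.66 and 1.56 CPM in heterozygous libraries. Both were higher without overlap, with adjusted p of 0.572 and 0.419.

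The promoters of the interferon list were read from the RefSeq promoter table (assembly GRCm38.p6), in which 17 of the 22 genes were matched. The interferon-stimulated response element was searched as GAAA, a gap of 2 bases of any kind and GAAA again, on both strands and within 250 bases before the start site. It was found for 9 of 17 genes (52.9%), against 3.46% of 27025 genes in the table. Among genes with the motif 5 of 9 were higher without overlap, and among those without it 6 of 8, so in these 17 genes the letters did not sort the genes that were apart. The windows below, 80 bases each and 5′ to 3′ on the gene's strand, show the motif in capitals for 5 genes that were apart and for Gbp2, which was not.
Isg15 (chr4:156200852-156200931, minus strand): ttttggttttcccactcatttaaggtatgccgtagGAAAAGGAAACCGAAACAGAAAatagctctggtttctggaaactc
Oas1a (chr5:120907526-120907605, minus strand): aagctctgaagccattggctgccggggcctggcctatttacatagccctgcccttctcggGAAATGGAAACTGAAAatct
Bst2 (chr8:71537558-71537637, minus strand): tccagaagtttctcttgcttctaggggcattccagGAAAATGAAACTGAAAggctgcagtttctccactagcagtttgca
Ifit3 (chr19:34583338-34583417, plus strand): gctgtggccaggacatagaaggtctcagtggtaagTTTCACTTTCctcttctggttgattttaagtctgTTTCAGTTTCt
Ifit1 (chr19:34640750-34640829, plus strand): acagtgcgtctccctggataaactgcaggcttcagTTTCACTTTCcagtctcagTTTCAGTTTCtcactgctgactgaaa
Gbp2 (chr3:142620569-142620648, plus strand): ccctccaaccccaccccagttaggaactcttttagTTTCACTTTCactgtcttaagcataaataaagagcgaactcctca

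In these windows the capitals of Isg15, Oas1a and Bst2 read GAAA in the direction of the gene, and those of Ifit3, Ifit1 and Gbp2 hold the reverse complement. Where matches overlap or adjoin, as in Isg15, the capitals run together, and Ifit3 and Ifit1 hold separate copies. Oas1a, which makes the second messenger that activates RNase L, was read at 4.25, 6.22 and 5.13 CPM in WT and 7.90, 8.31 and 7.18 CPM in heterozygous libraries. Ifit3 and Ifit1, which bind foreign RNA or its partners, were read at 31.2, 39.6 and 33.6 CPM in WT and 40.8, 45.03 and 50.4 CPM in heterozygous libraries and at 10.1, 12.2 and 9.07 CPM in WT and 13.8, 13.8 and 12.7 CPM in heterozygous libraries. All 3 were apart between the groups, whereas Gbp2, at 16.4, 17.4 and 15.7 CPM in WT and 13.5, 15.1 and 17.8 CPM in heterozygous libraries, had het 3 as its highest library and het 1 as its lowest.

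Complement and inflammatory genes were apart upwards in 4 of 15 tested (26.7%, against 6.15% of all tested genes), which were Cxcl1, Cxcl10, Ccl2 and Socs3. Without het 3 the share, which could not fall, was 26.7%, against 13.5% of all tested genes. C3, the central complement component, was read at 60.6, 55.5 and 26.6 CPM in WT and 88.00, 54.3 and 119 CPM in heterozygous libraries. Het 1 and het 3 were its highest libraries, het 2 lay within the WT range and WT 3 was the lowest. Lymphocytes did not follow the macrophage genes. Of 12 T and NK cell genes 5 were positive and none was apart, with a median of -0.08. Cd4, which macrophages may also carry, had the smallest p, at 2.05, 1.33 and 1.22 CPM in WT and 2.65, 2.32 and 1.95 CPM in heterozygous libraries, while Cd3e, a chain of the T cell receptor complex, was read at 0.871, 0.845 and 0.631 CPM in WT and 0.834, 0.719 and 0.587 CPM in heterozygous libraries. Plasma cell genes were high in the 2 libraries numbered 1. Igkc, the kappa light chain constant region, was read at 36.03, 6.67 and 5.26 CPM in WT and 54.3, 8.29 and 11.5 CPM in heterozygous libraries. Jchain, the joining chain of secreted IgA and IgM, was read at 14.2, 2.13 and 1.68 CPM in WT and 20.96, 3.31 and 3.14 CPM in heterozygous libraries. Igha, the heavy chain of IgA at the end of the first component, was read at 37.1, 6.31 and 5.75 CPM in WT and 79.5, 10.3 and 7.69 CPM in heterozygous libraries. WT 1 and het 1 were high in all 3 genes, and the other 4 libraries lay far below them. Of 12 neutrophil genes 6 had too few counts to be tested, and the alarmin S100a9 was read at 4.15, 0.270 and 1.30 CPM in WT and 0.686, 0.910 and 1.18 CPM in heterozygous libraries, highest in WT 1.

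**Figure D4:**
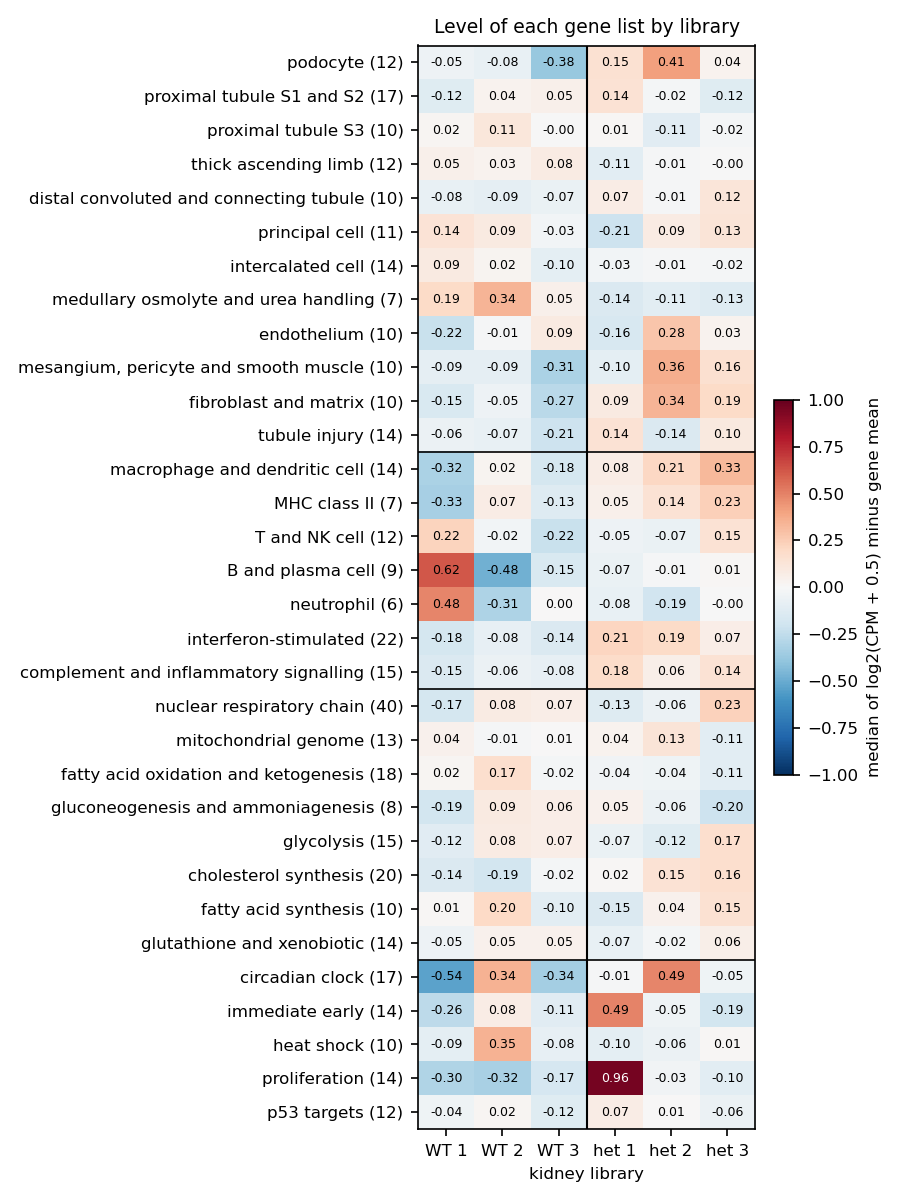
Library score of each list (median log2 level of its members minus each gene's mean over the 6 libraries) for WT 1 to 3 and het 1 to 3, as colour and as the printed value; the number after each list is its count of tested members. The interferon row separates the genotypes, as do others such as the podocyte, matrix, macrophage and cholesterol rows. The proliferation row separates them too but is far higher in het 1, and the clock row is high in WT 2 and het 2.

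Among metabolic programs, cholesterol synthesis and uptake genes were positive in 19 of 20, with a median of 0.21, and 5 of 20 were higher in every heterozygous library, against 6.15% of all tested genes. Insig1, the sterol sensor that holds SREBP in the endoplasmic reticulum, was read at 41.2, 37.6 and 47.3 CPM in WT and 48.2, 62.9 and 66.02 CPM in heterozygous libraries. Dhcr7, the last enzyme of the pathway, was read at 21.5, 18.9 and 22.6 CPM in WT and 25.2, 27.5 and 31.5 CPM in heterozygous libraries. Both genes were apart, with log2 fold changes of 0.49 (SE 0.14) and 0.42 (SE 0.11) and adjusted p of 0.472 and 0.450, so neither passed in edgeR. Msmo1 was apart as well. Cyp51 was the single negative member, at 604, 601 and 517 CPM in WT and 566, 535 and 561 CPM in heterozygous libraries. With 1 library left out, 5 to 11 members were higher without overlap, against 9.54 to 13.5% of all tested genes. That count, which could not fall below 5, was 11 without WT 3, 10 without het 1 and 5 without het 3. The list median then ran from 0.16 to 0.27. Of the 12 members with a promoter in the table, only Hmgcs1 held the sterol regulatory element TCACNCCAC, which was found for 1.22% of all genes.

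Fatty acid oxidation genes leaned the other way, with 2 of 18 positive and a median of -0.13. In 3 of 18 (16.7%, against 5.28% of all tested genes) every heterozygous library lay below every WT library. Without het 3 the share, which could not fall, was 16.7%, against 13% of all tested genes. Without WT 2, 4 members were lower and 3 higher without overlap, against 10.5% and 11% of all tested genes. Cyp4a10, a fatty acid hydroxylase under PPAR-alpha, was read at 454, 495 and 495 CPM in WT and 406, 414 and 353 CPM in heterozygous libraries, and Cyp4a14 of the same family at 621, 658 and 638 CPM in WT and 548, 607 and 485 CPM in heterozygous libraries. Both were lower in every heterozygous library, with adjusted p of 0.604 and 0.819, and reads of such close relatives can be split uncertainly. Etfdh, which passes electrons from this pathway to ubiquinone, was the third member apart, at 191, 189 and 197 CPM in WT and 178, 163 and 163 CPM in heterozygous libraries, its exons overlapping a model on the opposite strand. Acadm, the medium-chain acyl-CoA dehydrogenase gene, was read at 2380.2, 1914 and 1638 CPM in WT and 2008, 1423 and 1932 CPM in heterozygous libraries and overlapped. Pdk4, a kinase that spares glucose in fasting, was positive and was highest in the libraries numbered 2, at 40.5, 76.1 and 22.9 CPM in WT and 41.1, 137 and 56.3 CPM in heterozygous libraries. WT 2 was the highest library for 11 of the 18 genes, and the list median ran from -0.17 to -0.07 when 1 library was left out.

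Glucose and ammonia genes were negative in 7 of 8. Slc38a3, the glutamine transporter that feeds ammonia production, was read at 74.8, 59.6 and 101 CPM in WT and 57.9, 49.3 and 43.8 CPM in heterozygous libraries. It was lower without overlap, at a log2 difference of -0.64 (SE 0.19, adjusted p = 0.513), and WT 3 was the highest library. Pck1, the gluconeogenic enzyme PEPCK, was read at 3067, 3635 and 4223 CPM in WT and 3926, 4344 and 2682 CPM in heterozygous libraries, with het 3 the lowest of the 6. G6pc, which releases free glucose, was read at 269, 906 and 321 CPM in WT and 390.0, 492 and 198 CPM in heterozygous libraries, where WT 2 stood above all others. Of the 15 glycolytic genes none was apart, and the median was -0.01.

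Respiratory chain genes of the nucleus were alike between the genotypes but not between libraries. Of 40 genes 24 were positive and none was apart, and the log2 fold changes ran from -0.09 to 0.14. Het 3 was the highest library for 36 of the 40 genes and WT 1 the lowest for 30. Cox5b, a subunit of cytochrome oxidase, was read at 475, 542 and 535 CPM in WT and 426, 492 and 627 CPM in heterozygous libraries. Atp5b, the catalytic subunit of ATP synthase, was read at 3208, 3858 and 3808 CPM in WT and 3432, 3168 and 3763 CPM in heterozygous libraries. In the 13 genes of the mitochondrial genome het 3 was instead the library with the lowest score, as for mt-Co1, a cytochrome oxidase subunit, at 36591, 34848 and 35409 CPM in WT and 36730.2, 36762 and 28560.2 CPM in heterozygous libraries. The genotypes overlapped in 12 of these 13.

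Fatty acid synthesis had 6 of 10 positive and none apart. Scd1, the stearoyl-CoA desaturase gene, was read at 899.7, 1489 and 1175 CPM in WT and 1494, 1472 and 1466 CPM in heterozygous libraries. Fasn, the fatty acid synthase gene, was read at 119, 168 and 84.5 CPM in WT and 99.8, 131 and 190.4 CPM in heterozygous libraries, het 3 being highest and WT 3 lowest. Among glutathione and xenobiotic genes Cyp2e1, an ethanol-inducible P450, was the single gene apart, at 85.1, 102 and 85.8 CPM in WT and 47.1, 35.2 and 83.3 CPM in heterozygous libraries, where het 3 lay just below the WT range. It passed without het 3 (adjusted p = 0.0336). Gpx3, the plasma glutathione peroxidase that the proximal tubule secretes, was read at 15816, 20469 and 20258 CPM in WT and 23541, 19256 and 22029 CPM in heterozygous libraries and overlapped. Gclc, which makes the first step of glutathione synthesis, was read at 548, 219 and 274 CPM in WT and 289, 297 and 236 CPM in heterozygous libraries, high in WT 1 alone.

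Clock genes varied by library number. Dbp, an output gene of the clock, was read at 7.65, 62.9 and 27.6 CPM in WT and 36.1, 82.5 and 57.3 CPM in heterozygous libraries, its exons overlapping Sphk2 on the opposite strand. Ciart, a repressor of the clock, was read at 0.650, 4.66 and 0.957 CPM in WT and 1.69, 7.22 and 2.36 CPM in heterozygous libraries. Arntl, the activator that peaks in the opposite phase, was read at 18.6, 7.67 and 12.5 CPM in WT and 9.66, 4.87 and 9.32 CPM in heterozygous libraries. For Dbp and Ciart het 2 was the highest and WT 1 the lowest of all libraries, with ratios of 10.8 and 11.1, and Arntl had these 2 libraries in the reverse order at a ratio of 3.82. Within each number, the heterozygous library was higher for Dbp and Ciart and lower for Arntl. Per2 gave the same order, at 4.93, 20.9 and 5.81 CPM in WT and 12.7, 36.05 and 7.79 CPM in heterozygous libraries. None of the 17 clock genes was apart between the groups, 14 were positive with a median of 0.22, and without WT 2 the median was 0.72. With the block, no clock gene passed, and the adjusted p of Arntl and Per2 were 0.129 and 0.132. The labels give no time of day, and its part in these values was not tested. The E-box CACGTG, which CLOCK and ARNTL bind, was found for 5 of 15 clock genes, against 6.86% of all genes in the table, and is shown in capitals for a gene with a wide and a gene with a narrower spread between libraries.
Ciart (chr3:95882300-95882379, minus strand): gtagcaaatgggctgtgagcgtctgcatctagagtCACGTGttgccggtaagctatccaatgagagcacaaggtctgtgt
Per1 (chr11:69098748-69098827, plus strand): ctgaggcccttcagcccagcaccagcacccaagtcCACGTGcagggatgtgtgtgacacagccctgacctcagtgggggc

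Per1, a repressor of the clock, was read at 22.03, 53.4 and 22.5 CPM in WT and 30.03, 61.3 and 22.8 CPM in heterozygous libraries, highest in WT 2 and het 2, so the libraries numbered 2 stood apart for it as they did for Ciart.

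Proliferation genes were high in het 1. Mki67, a nuclear protein of cycling cells, was read at 4.88, 4.12 and 4.17 CPM in WT and 16.6, 7.23 and 5.02 CPM in heterozygous libraries. Cdk1, the kinase that starts mitosis, was read at 2.14, 2.28 and 2.14 CPM in WT and 6.21, 2.85 and 3.26 CPM in heterozygous libraries. Ccnb1, its cyclin partner, was read at 1.20, 1.03 and 1.09 CPM in WT and 4.66, 1.17 and 1.18 CPM in heterozygous libraries. Het 1 was the highest library for all 14 genes of the list, and in Ccnb1 the other heterozygous libraries lay within the WT range. The median log2 fold change was 0.89 with all libraries and 0.18 without het 1. Of the 14 genes 5 were apart with het 1 included and 5 without it, against 6.15% and 11.1% of all tested genes. Mki67 and Cdk1 had adjusted p of 0.625 and 0.572. Immediate early genes, which respond within minutes to growth factors and stress, were also high in this library. Fos was read at 1.31, 0.969 and 1.65 CPM in WT and 10.4, 1.22 and 0.962 CPM in heterozygous libraries, and Egr1 at 8.24, 6.74 and 14.3 CPM in WT and 41.3, 10.01 and 8.89 CPM in heterozygous libraries. Het 1 was the highest library for 8 of the 14 genes, and none was apart between the groups. The list median was 0.22 with all libraries and 0.0424 without het 1. Among heat shock genes Hspa1b was read at 85.9, 96.5 and 78.8 CPM in WT and 37.7, 49.7 and 60.4 CPM in heterozygous libraries. It and its near-identical neighbour Hspa1a, whose reads can be confused with it, were lower in every heterozygous library (adjusted p = 0.246 and 0.217), and Hspa1b passed without het 3 (adjusted p = 0.0417). Hspa8, the constitutive chaperone, was read at 1206, 2777 and 1492 CPM in WT and 1791, 2385 and 1731 CPM in heterozygous libraries, high in the libraries numbered 2, and it shares exonic sequence with small nucleolar RNAs.

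Genes of neighbouring tissues differed by library. Steroid synthesis genes of the adrenal cortex were high in het 2 and het 3. Cyp11b1, the last enzyme of corticosterone synthesis, was read at 0.0105, 0.0676 and 0.173 CPM in WT and 0.0211, 6.36 and 8.64 CPM in heterozygous libraries, its exons overlapping Gml2 on the opposite strand. Star, which carries cholesterol into mitochondria for this synthesis, was read at 3.96, 3.95 and 3.99 CPM in WT and 4.51, 13.5 and 18.96 CPM in heterozygous libraries. Summed over 10 adrenal genes the level was 4.72 to 4.93 CPM in WT and 4.97 to 59.9 CPM in heterozygous libraries, het 1 being close to WT. Cyp11b1 rose in the blocked test (adjusted p = 0.00572), although het 1 lay within the WT range. Th, Dbh and Pnmt, genes of the adrenal medulla, were at or near 0 in all libraries. Fibre genes of skeletal muscle were present in the libraries numbered 3, with Acta1 at 0.0629, 0.146 and 35.3 CPM in WT and 0.0739, 0 and 43.7 CPM in heterozygous libraries. Hepatocyte genes were high in het 3, with Alb at 41.3, 10.2 and 26.7 CPM in WT and 8.79, 11.9 and 218 CPM in heterozygous libraries, and the summed level of 6 such genes was 54.3 to 91.0 CPM in WT and 43.1 to 303 CPM in heterozygous libraries. Fat genes were low in WT 3, with Adipoq, the adiponectin gene, at 55.9, 31.5 and 1.75 CPM in WT and 25.5, 14.4 and 33.2 CPM in heterozygous libraries. Serpina6, the corticosteroid-binding globulin gene, rose with the block (adjusted p = 0.0436), at 1.29, 1.55 and 2.08 CPM in WT and 6.64, 5.33 and 25.2 CPM in heterozygous libraries, and its highest library was het 3 as for Alb. The part of these tissue traces in other differences was not tested. The counts of members apart without het 3, given above, could not fall and so do not test it. Without het 3 the list medians were 0.32 for macrophage, 0.23 for MHC class II, 0.35 for matrix and 0.35 for interferon genes. Those fits keep the adrenal genes of het 2 and the muscle genes of WT 3.

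**Figure D5:**
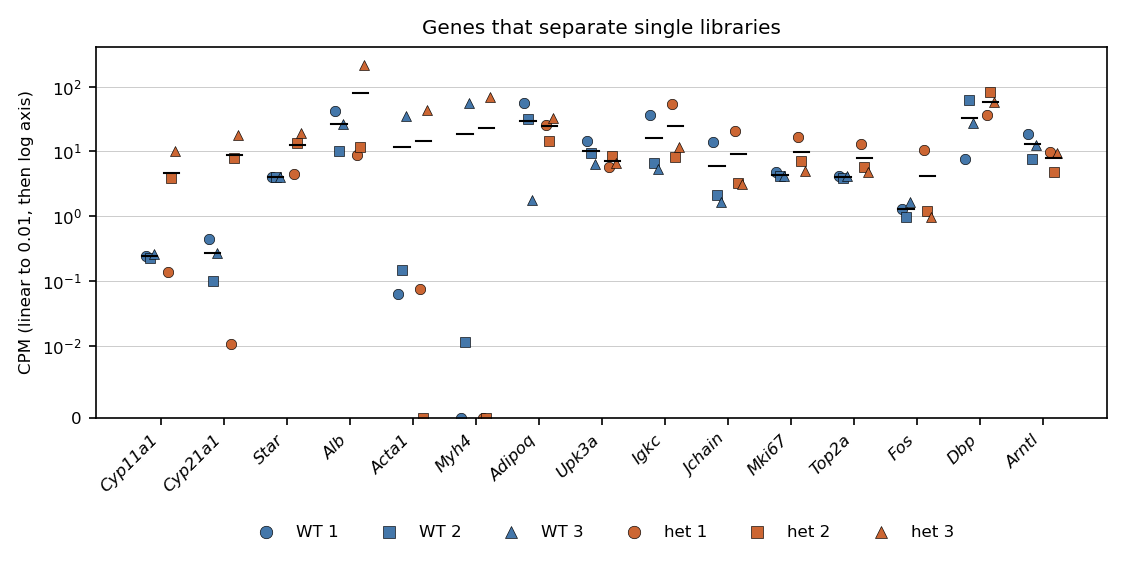
CPM of 15 genes in the 6 kidney libraries, on an axis that is linear up to 0.01 and logarithmic above; each point is 1 library and each black line a group mean. Acta1 is high in WT 3 and het 3, Alb in het 3, Cyp11a1 in het 2 and het 3, Mki67 in het 1, and Adipoq is low in WT 3.

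Kidney was set against brain, liver, quadriceps muscle and spleen by the difference between its heterozygous effect and the mean effect of those tissues, each tissue having 3 libraries per genotype. The tissues come from the same mice, and the fit treated the libraries as independent, since the labels do not say whether a number names the same mouse in every tissue. Of 24262 genes, 6 (0.0247%) passed an adjusted p of 0.05. Slc6a12, the betaine transporter of the medulla, differed by -1.36 (SE 0.24, adjusted p = 0.0333). Its log2 fold change was -1.19 in kidney and 0.19 in liver. Carmil2 had positive log2 fold changes in all 5 tissues, 5.34 in kidney, 5.33 in liver, 7.64 in muscle, 1.53 in brain and 0.81 in spleen. Serpina1d, a liver serpin of the alpha-1-antitrypsin family with near-identical copies, was read in kidney at 43.2, 49.5 and 29.5 CPM in WT and 96.4, 105 and 97.7 CPM in heterozygous libraries. Every heterozygous library lay above every WT library. Het 3, which had the most Alb, was not the highest, and the part of liver traces in this gene was not tested. Ttr, the thyroid hormone carrier transthyretin, was read in kidney at 35.6, 63.5 and 36.99 CPM in WT and 133, 107 and 146 CPM in heterozygous libraries, likewise without overlap. Its exons overlap those of Gm16090 on the opposite strand. Ugt2b34, a glucuronosyltransferase gene of liver and kidney, was read in the joint scaling at 49.4 ± 5.72 CPM in WT kidneys and 66.3 ± 8.69 CPM in heterozygous kidneys (mean ± SD, n = 3 each). Serpina1d, Ttr and Ugt2b34 were read at a mean of 1.20 CPM or less in muscle and spleen, where their log2 fold changes were negative, so the difference between tissues rests in part on those low levels. They and Carmil2 had adjusted p of 0.00877, 0.0333, 0.0333 and 0.0363 for the difference.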

How the data were processed

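Total RNA of 6 kidneys (3 WT, 3 Ctcf+/-) was sequenced, from samples with an RNA integrity number over 7 per the labels. The deposited values are raw counts per gene, made with featureCounts 1.5.0-p3 on paired reads over exons of Ensembl release 86 (GRCm38) without strand, per the file headers. The submitters' processing notes name FastQC, STAR and DESeq2. Genes with few counts were removed with filterByExpr, libraries were scaled by TMM, and edgeR 4.0.16 (R 4.3.3) gave quasi-likelihood tests with Benjamini-Hochberg adjustment. CPM are TMM-scaled. DESeq2 1.42.0, limma 3.58.1, other scalings and filters, a replicate block and the omission of each library were tried as alternatives. Same-numbered libraries deviated together (r = 0.273, 0.237 and 0.227 across genes), which is where the pairing comes from. Principal components and library scores used log2(CPM + 0.5). The tests were checked on simulated data.

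Gene lists and groups of interest were chosen with earlier results of these data known. Named genes were the called genes, up to 3 members per list with the smallest p and a mean of at least 1 CPM, the most abundant member, up to 10 genes called with the block and up to 10 called without het 3, the ends of the first 2 principal components, the 5 genes with the smallest p for kidney against other tissues, and members that show which library is high or low; further members and genes were named after their values were seen. Some genes that these rules select are not reported here. The counting can split reads of overlapping or near-identical genes.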

Additional observations from a re-analysis of the deposited data

Results flagged for a closer look

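A test of the kidney effect against the mean effect of brain, liver, muscle and spleen, in edgeR with Benjamini-Hochberg adjustment, singled out 6 genes. Serpina1d differed by 2.34 (adjusted p = 0.00877) and passed under 8 of 9 alternatives, the exception being the fit without WT 3. Ttr differed by 3.73 (adjusted p = 0.0333, 6 of 9 alternatives), and Ugt2b34 by 2.62 (adjusted p = 0.0333, 5 of 9). In spleen the mean Ttr level was 1.20 CPM in WT and 0.0219 CPM in heterozygous libraries, so small amounts of RNA carry part of that contrast. Slc6a12 differed by -1.36 (adjusted p = 0.0333, 4 of 9) and was lower in 3 of 3 heterozygous kidneys. Carmil2 differed by 1.52 (adjusted p = 0.0363, 3 of 9), with positive effects in all 5 tissues.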

How the results depend on the processing

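The number of genes called, 4 in the main test, was 175 with DESeq2, 45 with no filter on low counts, 2 with at least 10 counts in every library, 21 with the replicate block and 24 without both libraries of number 3, the last chosen after seeing the data. Leaving out 1 library gave 3 to 56 calls, 56 without het 3 and 9 without het 1. For Ctcf the log2 fold change was -0.71 with DESeq2, with no filter and with the block, each past the threshold, and -0.76 to -0.63 when 1 library was left out, past it without het 3. The kidney against other tissues test gave 10 calls with limma-voom, 12 with the stricter filter and 1 to 16 when 1 kidney library was left out, 3 without WT 1, 2 without WT 2, 1 without WT 3 and 16 without het 3. Signs were compared for the named genes only, between the main fit and each alternative. Among 2428 pairs of a named gene and a setting, 75 had the opposite sign, and none of those was called in either fit. The 21 genes called with the replicate block include some that the text does not mark as passing with it, such as Serpina1d (adjusted p = 0.0246 in edgeR with the block).

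List medians moved by more than the spread of the library scores in 33 of 588 comparisons, on 20 of 42 lists. Neutrophil genes were at -0.22 with limma-voom, and adrenal genes at 2.42 with limma-voom and 1.64 with the stricter filter. With 1 library, or both of number 3, left out, the medians ran from -0.17 to -0.048 for proximal tubule S3, 0.0353 to 0.12 for the distal tubule, -0.20 to 0.0561 for principal cells, -0.0722 to 0.0575 for intercalated cells, -0.19 to -0.0411 for medullary osmolytes, 0.18 to 0.39 for tubule injury and -0.29 to 0.19 for T and NK cells. They ran from -0.21 to 0.45 for B and plasma cells, -0.90 to 0.30 for neutrophils, 0.18 to 0.33 for complement, -0.21 to 0.18 for fatty acid synthesis, 0.0505 to 0.72 for clock genes, 0.18 to 1.22 for proliferation and -0.37 to 0.0132 for male-biased genes. They ran from -0.48 to -0.0361 for female-biased genes, 2.15 to 4.83 for adrenal genes, -0.11 to 0.34 for erythroid genes, -0.82 to 0.000880 for urothelium, -5.01 to 4.70 for skeletal muscle and -1.18 to 1.69 for hepatocyte genes. Over all genes instead of the most variable ones, 0.247% of the first component and 82.4% of the second lay between genotypes. The causes were not tested. No list was tested as a set.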

Other observations

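Of the p53 target genes, 7 of 12 were positive with a median of 0.05, and Eda2r, a TNF receptor family member that p53 induces, was the single gene apart, at 0.797, 0.755 and 0.621 CPM in WT and 1.33, 1.07 and 0.962 CPM in heterozygous libraries. Cdkn1a, the cell cycle inhibitor p21, was read at 14.2, 19.7 and 13.7 CPM in WT and 15.5, 11.8 and 16.2 CPM in heterozygous libraries and overlapped. Of the 13 cohesin and partner genes, 11 overlapped between the genotypes, the others being Ctcf and Ctcfl, and het 3 was the lowest library for 10. Rad21, the cohesin kleisin, was read at 161, 173 and 158 CPM in WT and 156, 163 and 145 CPM in heterozygous libraries, and Nipbl, the cohesin loader, at 52.3, 42.6 and 39.7 CPM in WT and 48.04, 51.4 and 32.3 CPM in heterozygous libraries. Ctcfl, the germline paralogue of Ctcf, was at a low level, at 0.283, 0.225 and 0.173 CPM in WT and 0.391, 0.299 and 0.344 CPM in heterozygous libraries, higher in each heterozygous library (adjusted p = 0.863), and its exons overlap those of another gene.

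Urothelial genes, which would come from the lining of the renal pelvis, were highest in WT 1, with the uroplakin gene Upk1a at 16.2, 7.02 and 5.34 CPM in WT and 5.08, 8.50 and 5.56 CPM in heterozygous libraries. The basal keratin gene Krt5 was read at 12.04, 9.32 and 5.37 CPM in WT and 4.84, 5.01 and 3.79 CPM in heterozygous libraries, lower in every heterozygous library (adjusted p = 0.482). Globin genes were highest in het 3, with Hba-a1 at 661, 919.6 and 721 CPM in WT and 731, 864 and 1383 CPM in heterozygous libraries, a gene with a near-identical copy. Kap, an androgen-regulated proximal tubule gene, was read at 15950.2, 14990.1 and 14040.0 CPM in WT and 12767, 11127 and 17508 CPM in heterozygous libraries, and Prlr, the prolactin receptor gene that is higher in female kidney, at 336, 354 and 276 CPM in WT and 299, 298 and 143 CPM in heterozygous libraries, lowest in het 3. The 6 pancreatic enzyme genes summed to less than 1 CPM in every library.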
